A study of Mus musculus with 8 samples.

Results

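This account follows a list of 39 interferon-induced genes through gonadal white adipose tissue of control mice and of mice lacking Pex5 in fat. Members were taken by name, as genes with a single platform symbol on the list, and each was read on whichever of its probe sets had the highest mean across the 8 arrays. Of the 39 listed genes, 37 were measured, among 18193 genes in all. Isg15 lies on a probe set that carries several symbols and Ifi44 had no probe set under its own name, so neither was analysed here. No measured value entered the choice of members, but the list was drawn up with earlier results of these data known.

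The study set 4 arrays of gonadal adipose tissue from control mice, labelled wild type and described as of Swiss background, beside 4 arrays from aP2-Pex5 -/- mice. All samples were labelled as aged 10 weeks and untreated, and neither the sex of the mice nor the pooling of animals is given in the sources used here. Pex5 is the receptor that carries enzymes into peroxisomes, and aP2 is the older name of the Fabp4 promoter, which is active in adipocytes and known to be active also in macrophages. Whole tissue was measured, so vessels, immune cells and stroma contributed RNA as well. Arrays are called by their label's number: controls are 1, 2, 3 and 4, and knockouts 6, 8, 9 and 10.

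Interferons are secreted proteins that cells release when they sense viral nucleic acid or are activated as lymphocytes. Type I interferons act through the Ifnar1 and Ifnar2 receptor chains and a complex that holds Stat2 and Irf9 and binds the interferon-stimulated response element (ISRE) in promoters. Type II interferon, or interferon gamma, acts through Ifngr1 and Ifngr2 and, in promoters, through the gamma-activated site (GAS). Most members answer to both, and the split used here goes by the better known inducer: 27 measured members form the type I group and 10 (Gbp2, Gbp3, Irf1, Psmb8, Psmb9, Tap1, Tap2, Iigp1, Igtp and Irgm1) the type II group. In fat, both macrophages and adipocytes are known to express such genes at rest.

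The deposited values are log2 levels, so a difference of 1 is a doubling of the signal. Median array values lay between 6.44 and 6.52. The adipocyte genes Adipoq (14.43 to 14.63) and Fabp4 (14.74 to 14.81) were high on each array. Pex5 itself averaged 9.38 against 9.36 in the knockout (difference -0.01, 95% interval -0.29 to 0.27), so these values do not show the deletion. The labels do not name the deleted exons, so its probe set may lie outside them, and other cells of the tissue also contributed RNA. Neither was tested. By the lower quartile of their values the arrays fell into 2 sets of 4, controls 1 and 2 with knockouts 6 and 8 (4.77 to 4.79) and controls 3 and 4 with knockouts 9 and 10 (4.83 to 4.85). These are called the first and the second set, and no label names them. For pyruvate carboxylase, read here as a measure of RNA quality, the 3' end read 3.97 above the 5' end on control 1, 4.83 on control 4, 4.65 on knockout 9 and 1.59 to 2.10 on the remaining arrays.

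Interferon-induced genes lay mostly a little below control in the knockout, none of them past the test. Of 37 members, 34 had a negative difference, where 53.3% of all genes did. The median difference was -0.17, against -0.01 over all genes. Single members ran from -0.58 (Iigp1) to 0.04 (Psmb8), and 11 lay more than 0.3 below control. The share of all genes beyond that cut was not computed, so how unusual that count is cannot be said. With each array's median subtracted, 36 members were lower (63.3% of all genes), and with the arrays quantile normalised again, 34 (53.9% of all genes). Subtracting medians moved the median over all genes to -0.04, which bears on every count given below for that setting. No member passed limma over all genes (0 of 37), where 0 of 18193 genes passed, a share of 0.00%, and the adjusted p was 0.999 for each member. At an unadjusted limma p under 0.05 stood 1 member, Gbp2, on the lower side, where 1.38% of all genes stood, and 0 on the higher side, where 1.18% did. Among the 12 members given in full further on, the unadjusted limma p ran from 0.0166 for Gbp2, 0.0506 for Ifi204 and 0.0596 for Parp9 to 0.842 for Psmb8. The control and knockout arrays overlapped for all 37 members, where 1.02% of all genes were separated with the knockout lower and 0.682% with it higher. Fewer cells of a type and less RNA per cell cannot be told apart in whole tissue. Separate animals per array are not stated in the labels, and p-values reflect the spread of these samples alone, which may be technical.

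**Figure D1:**
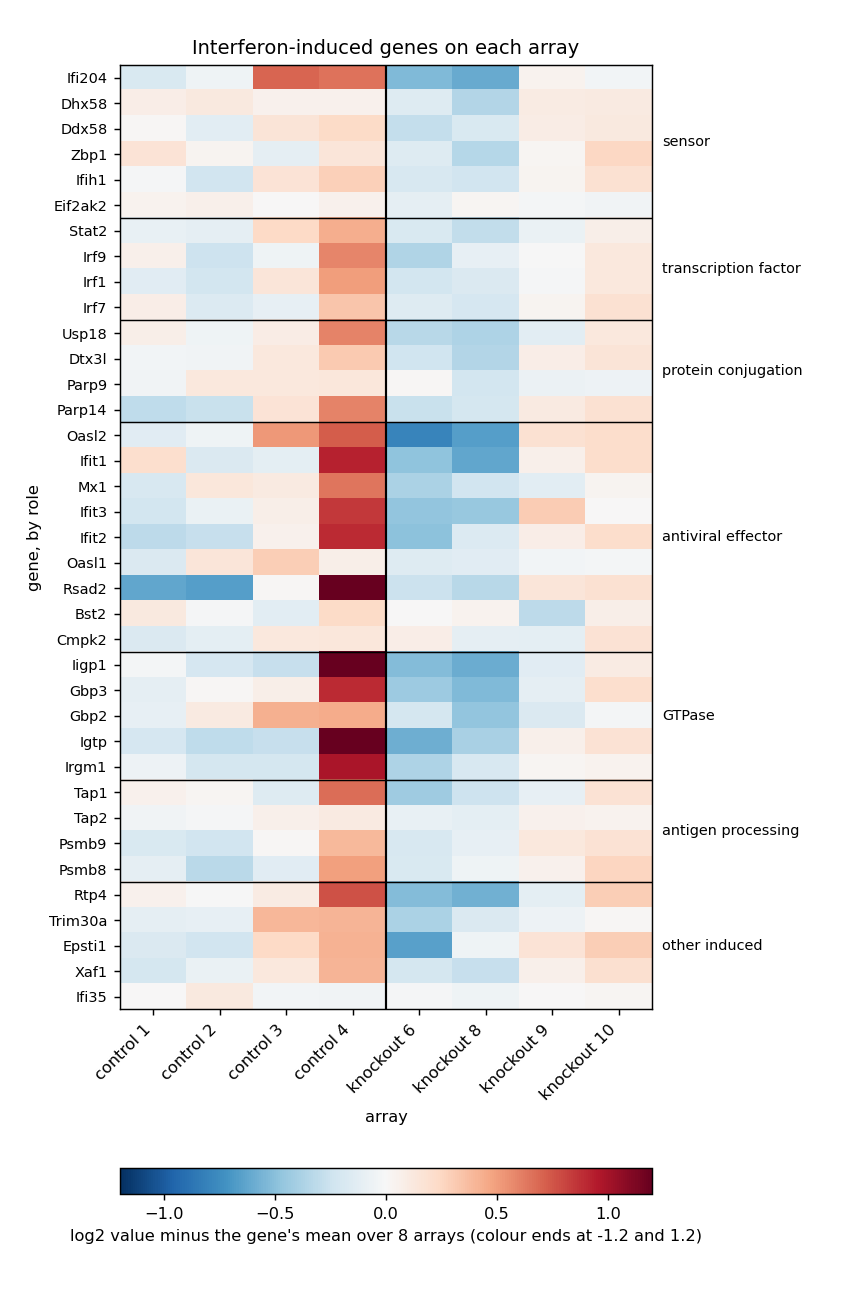
Heat map of the 37 measured interferon-induced genes (rows, grouped by role) on the 8 arrays (columns, controls left of the line); colour is the log2 value minus the gene's mean over 8 arrays, red above and blue below. Control 4 is red in most rows, above all in the GTPases, and knockouts 6 and 8 are blue in most rows.

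Array by array, 2 patterns were seen among the members. Control 4 was the highest of the 8 arrays for 30 of 37 members (16.2% of all genes) and the highest control for 31 (30.1% of all genes). Taking each member's mean over the 8 arrays as 0, the mean over the members was -0.08, -0.10, 0.08 and 0.54 on controls 1 to 4 and -0.29, -0.27, 0.01 and 0.12 on knockouts 6, 8, 9 and 10. Controls 1 and 2 thus lay below knockouts 9 and 10, and the groups overlapped. The second pattern ran with the array sets, each of which held 2 controls and 2 knockouts. With the set as a block in the fit the member median was likewise -0.17. Knockouts 9 and 10 both lay above knockouts 6 and 8 for 33 members, where 27.2% of all genes did so, and controls 3 and 4 both above controls 1 and 2 for 22, where 24.2% did; both held for 20 members, where 12.7% of all genes showed both. The lowest array was knockout 6 or 8 for 29 members, where it was for 24.9% of all genes.

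Without control 4 the difference between groups was smaller. That fit holds fewer controls of the second set than of the first. The median over the members was -0.08 and 28 of 37 were lower, where 51.5% of all genes were. More than 0.3 below control lay 3 members, Gbp2, Oasl2 and Ifi204, a cut for which the share of all genes was not computed. Again 0 members passed limma, where 0.00% of all genes did; the smallest adjusted p was 0.568, and 1 member, Gbp2, had an unadjusted p under 0.05 on the lower side, where 3.96% of all genes did. Within the first set, 2 controls against 2 knockouts, the median was -0.14 and 32 members were lower (55.0% of all genes). Within the second set, the median was -0.22 and 34 were lower (46.6% of all genes). A negative difference within both sets was found for 29 members. The share of all genes with it was not computed, so how unusual that count is cannot be said. With the array set as a block in the fit, 10 members had an unadjusted limma p under 0.05 on the lower side, where 2.20% of all genes did. They were Gbp2, Gbp3, Ifi204, Oasl2, Usp18, Rtp4, Stat2, Trim30a, Mx1 and Dtx3l. None of the 10 passed over all genes, the smallest limma adjusted p being 0.821, for Ifi204. Without control 4 and with the array set as a block, the member median was -0.11 and 28 were lower (54.0% of all genes). In that fit 6 members on the lower side and 1, Rsad2, on the higher had an unadjusted limma p under 0.05. Of all 18193 genes, 2334 did so in either direction, and 0 members passed over all genes.

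**Figure D2:**
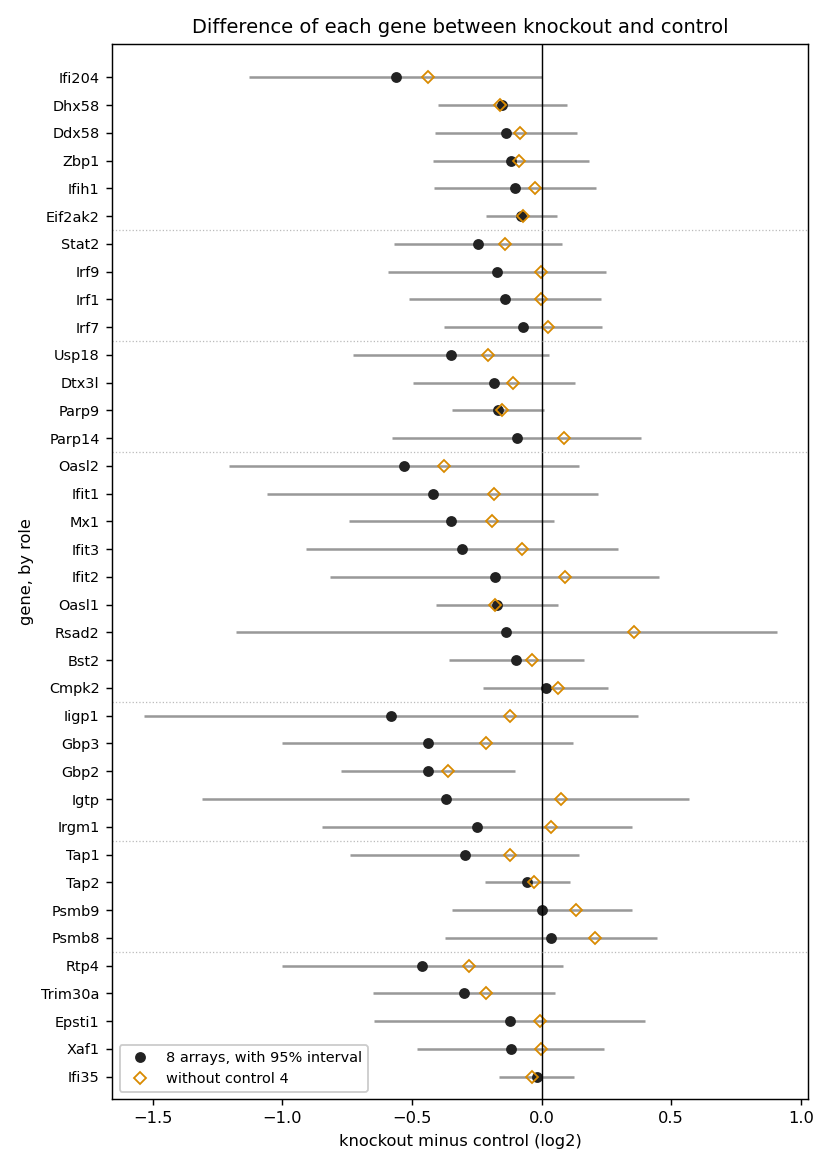
Difference between knockout and control (log2, horizontal) for each of the 37 genes by role; black dots with grey bars are the values over 8 arrays with their 95% limma intervals, and open diamonds the values without control 4. The interval of Gbp2 is the one that does not hold 0, and Rsad2, Igtp and Iigp1 have among the widest bars and move far to the right without control 4.

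The promoters of these genes can be set beside their values. RefSeq promoters on GRCm38.p6, 250 bases before to 50 after a start, were found for 29 of the 39 listed genes. The core of the ISRE, 2 copies of GAAA with any 2 bases between them, on either strand, occurred in a promoter of 14 of the 29 (48.3%), where 3.99% of all 27025 genes had it. Of the type I group 10 of 21 genes with a promoter entry had the core, and of the type II group 4 of 8. The GAS letters TTCNNNGAA, which read the same on both strands, occurred in 7 of the 29 (24.1%), where 9.55% of all genes had them. The stretches below are shown because they carry the ISRE core in GTPases, antiviral genes and the transcription factor gene Stat2, whose values are described further on; capitals mark the core, which shows as copies of TTTC where it lies on the other strand, and each stretch ends before the start site.
Gbp2: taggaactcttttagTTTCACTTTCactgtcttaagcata
Gbp3: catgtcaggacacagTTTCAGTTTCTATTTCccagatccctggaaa
Irgm1: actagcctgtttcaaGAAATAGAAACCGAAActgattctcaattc
Igtp: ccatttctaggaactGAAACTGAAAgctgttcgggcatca
Ifit1: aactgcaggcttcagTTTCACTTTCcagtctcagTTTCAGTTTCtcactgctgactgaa
Ifit3: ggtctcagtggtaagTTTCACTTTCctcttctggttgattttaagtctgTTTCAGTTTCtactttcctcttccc
Rsad2: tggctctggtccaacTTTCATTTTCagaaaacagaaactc
Stat2: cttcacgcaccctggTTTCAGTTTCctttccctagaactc

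These stretches lie at chr3:142620589-142620628 for Gbp2 and chr3:142559984-142560029 for Gbp3, both on the + strand. Those of Irgm1 and Igtp lie at chr11:48871421-48871465 on the - strand and chr11:58199507-58199546 on the + strand. Ifit1 and Ifit3 lie on the + strand at chr19:34640770-34640828 and chr19:34583358-34583431, Rsad2 at chr12:26456548-26456587 on the - strand and Stat2 at chr10:128270261-128270300 on the + strand. Gbp3 and Irgm1 each carry 2 overlapping cores, and Ifit1 and Ifit3 2 separate ones. The first core base lies at position -34 from the start in Igtp, -59 in Gbp2 and -222 in Stat2. The GAS letters are shown for Irf1, a textbook gamma-activated gene, for Psmb8, and for Igtp, where they lie next to the core above, sharing 0 bases with it.
Irf1: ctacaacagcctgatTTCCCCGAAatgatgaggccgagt
Psmb8: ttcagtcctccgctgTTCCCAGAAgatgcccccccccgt
Igtp: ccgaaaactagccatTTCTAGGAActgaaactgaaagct

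Those 3 stretches lie on the + strand at chr11:53769909-53769947, chr17:34198083-34198121 and chr11:58199496-58199534. In Bst2, which holds both motifs, they share 3 bases. Of the 27 measured members with a promoter entry, 13 had the ISRE core, with a median difference of -0.25, all 13 lower in knockout, and 14 had none in this window, with a median of -0.13 and 11 lower. Control 4 was the highest array for 12 of the former and 11 of the latter. Without control 4, Rsad2 (0.36), Igtp (0.07) and Irgm1 (0.03) of the former lay higher in knockout and the rest lower. Of the latter, Ifit2 (0.09) and Irf7 (0.03) turned too, and medians by motif were not computed for that fit. For the GAS letters the order over 8 arrays was the other way. The 7 members with them had a median of -0.10 and 6 lower, and the 20 without them a median of -0.18 and 18 lower. A match describes letters in a window and is not a measured binding site.

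Sensors detect viral nucleic acid inside the cell. All 6 measured members of this role were lower in knockout, with a median of -0.13. Ifi204, a DNA-binding protein of the interferon-inducible p200 family, read 7.17, 7.29, 8.05 and 8.002 on controls 1 to 4 and 6.82, 6.74, 7.39 and 7.31 on knockouts 6, 8, 9 and 10. Both second-set controls stood above all other arrays, and the knockouts overlapped controls 1 and 2. The means were 7.63 ± 0.46 and 7.07 ± 0.33 (SD, n = 4 each), and the difference was -0.56 (standard error 0.25, 95% interval -1.13 to 0.00199). Its difference was -0.45 within the first set, -0.68 within the second and -0.44 without control 4. Being one of a family of close relatives, its signal may include theirs.

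Ifih1, the RNA helicase MDA5, read 9.40, 9.18, 9.58 and 9.70 in control and 9.23, 9.18, 9.45 and 9.60 in knockout, arrays in the same order. The groups covered nearly the same range, with means of 9.47 ± 0.22 and 9.36 ± 0.19 (SD, n = 4 each) and a difference of -0.10 (95% interval -0.42 to 0.21). Ddx58, the helicase RIG-I, differed by -0.14, and Dhx58 (LGP2), a helicase that modulates both, by -0.15. Dhx58 was even across controls, at 6.98 to 7.05, and lay at 6.78 and 6.57 on knockouts 6 and 8 but at 7.02 and 7.03 on knockouts 9 and 10. Zbp1, a sensor of Z-form nucleic acid, split the same way, with 6.80 and 6.62 against 6.98 and 7.21 in knockout and 6.85 to 7.13 in control, and differed by -0.12. The other Zbp1 probe set, of a lower mean level, differed by -0.30, with control 4 its highest array. Eif2ak2, the RNA-activated kinase PKR, varied least of the sensors, from 7.83 to 7.999 over all arrays, with a difference of -0.08 (95% interval -0.21 to 0.06). Sensors were the role in which control 4 stood out least often, being the highest array for 2 of 6.

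Transcription factors of the response form the next role. All 4 were lower, with a median of -0.16 that was -0.00154 without control 4. Stat2 read 7.69, 7.67, 8.02 and 8.22 in control and 7.59, 7.48, 7.69 and 7.85 in knockout. Each knockout lay below the controls of its own set, while knockouts 9 and 10 lay above controls 1 and 2, knockout 9 by little. The means were 7.90 ± 0.26 and 7.65 ± 0.16 (SD, n = 4 each), a difference of -0.25 (standard error 0.14, 95% interval -0.57 to 0.08), and -0.14 without control 4.

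Irf1, an activator induced by interferon gamma and by inflammatory signals, read 9.43, 9.35, 9.71 and 10.06 in control and 9.35, 9.39, 9.55 and 9.69 in knockout. The top array was control 4 and the other 7 were mixed, with means of 9.64 ± 0.32 and 9.50 ± 0.16 (SD, n = 4 each). Its difference of -0.14 (95% interval -0.51 to 0.23) was -0.000440 without control 4. Irf9, the DNA-binding partner of Stat2, differed by -0.17, and by -0.00263 without control 4, where it had read 9.19 against 8.35 to 8.66 in the other controls. Irf7, which amplifies type I interferon production, differed by -0.07, and by 0.03 without control 4.

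Protein conjugation genes attach or remove ubiquitin-like proteins and ADP-ribose. All 4 measured members were lower, with a median of -0.18, and -0.13 without control 4. Parp9, an ADP-ribosyltransferase partner of the ubiquitin ligase Dtx3l, read 10.17, 10.34, 10.34 and 10.34 in control and 10.22, 9.99, 10.14 and 10.15 in knockout. Controls 2 to 4 were alike and above all knockouts, and control 1 lay within the knockout range. The means were 10.30 ± 0.09 and 10.13 ± 0.10 (SD, n = 4 each), a difference of -0.17 (standard error 0.08, 95% interval -0.35 to 0.00856), and -0.15 without control 4. Dtx3l, the neighbouring gene, differed by -0.18, and Parp14, the next gene along, by -0.10 over 8 arrays and 0.09 without control 4.

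Usp18 removes Isg15 from proteins and restrains signalling at the type I receptor. It read 7.36, 7.24, 7.38 and 7.90 in control and 6.97, 6.93, 7.17 and 7.43 in knockout, a gene picked here after its values were seen. Knockouts 6, 8 and 9 lay below all controls, and knockout 10 within the control range. Its difference was -0.35 (standard error 0.17, 95% interval -0.73 to 0.03), with -0.36 and -0.34 within the first and the second set and -0.21 without control 4.

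Antiviral effectors act on viral RNA, membranes or nucleotides. Of 9 members 8 were lower, 9 with array medians subtracted, and the median was -0.18. Without control 4, 6 of the 9 were lower and the median was -0.08. Rsad2 (viperin), a radical enzyme that makes a chain-terminating nucleotide, read 8.31, 8.27, 8.95 and 10.48 in control and 8.68, 8.60, 9.08 and 9.12 in knockout. Control 4 stood far above the rest, while controls 1 and 2 were the lowest of all arrays. The means of 9.0025 ± 1.03 and 8.87 ± 0.27 (SD, n = 4 each) differed by -0.14 (95% interval -1.18 to 0.91). The sign turned without control 4 (0.36) and within the first set (0.35), and was negative within the second (-0.62). Cmpk2, its neighbour in the genome and a nucleotide kinase, read 7.02 to 7.32 in control and 7.07 to 7.37 in knockout and differed by 0.02. Its probe sets did not read alike. The other one, of nearly the same mean level, read 6.92, 6.62, 7.27 and 7.84 on controls 1 to 4 and 6.995, 6.73, 7.31 and 7.30 on the knockouts, with control 4 the highest and a difference of -0.08.

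Mx1, a GTPase that blocks viral replication, read 5.21, 5.54, 5.52 and 6.05 in control and 5.03, 5.18, 5.27 and 5.44 in knockout. Controls 2 to 4 were above all knockouts and control 1 among them, with means of 5.58 ± 0.34 and 5.23 ± 0.17 (SD, n = 4 each). Its difference was -0.35 (standard error 0.17, 95% interval -0.74 to 0.05) and -0.19 without control 4. Values this low on the log2 scale may be compressed, and the deposited table holds no detection calls.

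The Ifit proteins bind viral RNA ends, and Ifit2 and Ifit3 are neighbours in the genome. Ifit1 read 6.89, 6.51, 6.57 and 7.61 in control and 6.20, 6.07, 6.75 and 6.90 in knockout. Control 4 was again the highest and knockouts 6 and 8 the lowest; the difference was -0.42, and -0.18 without control 4. Ifit3 differed by -0.31 and Ifit2 by -0.18, and without control 4 by -0.08 and 0.09. Oasl2, an oligoadenylate synthetase-like protein, read 7.89, 7.98, 8.55 and 8.76 in control and 7.24, 7.37, 8.21 and 8.24 in knockout. Within each set both knockouts lay below both controls, by -0.63 in the first and -0.43 in the second, and over 8 arrays by -0.53 (95% interval -1.21 to 0.14). Its neighbour Oasl1 differed by -0.17, with control 4 (6.86) within the range of the other controls. Bst2 (tetherin), which holds budding virus at the membrane, differed by -0.10. Ifit1 and Oasl2 were picked after their values were seen.

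Interferon-inducible GTPases guard against parasites and bacteria inside vacuoles, and all 5 belong to the type II group. All 5 were lower in knockout, with a median of -0.44, and 3 of 5 without control 4, with a median of -0.12. Gbp2, a guanylate-binding protein, read 10.51, 10.71, 11.03 and 11.04 in control and 10.40, 10.13, 10.43 and 10.58 in knockout. Knockout 10 overlapped control 1 and the other 3 knockouts lay below all controls. Its difference of -0.44 (standard error 0.15, 95% interval -0.77 to -0.10) had an unadjusted limma p of 0.0166. It was -0.35 within the first set, -0.53 within the second and -0.36 without control 4, and lay between -0.54 and -0.35 with any 1 array left out. The probe set used (suffix _x_at) can take up signal from related transcripts, and both of its probe sets were lower.

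Gbp3 read 8.61, 8.73, 8.78 and 9.61 in control and 8.28, 8.19, 8.60 and 8.91 in knockout, and differed by -0.44. It was also lower within each set, by -0.44 in both, and by -0.21 without control 4. The immunity-related GTPases were set apart by control 4, and their values were picked after they were seen. Iigp1 (Irga6) read 10.06, 9.88, 9.81 and 11.74 in control and 9.56, 9.49, 9.95 and 10.18 in knockout. Igtp (Irgm3) read 8.94, 8.84, 8.87 and 10.66, against 8.56, 8.75, 9.20 and 9.31. Irgm1 read 8.74, 8.58, 8.59 and 9.77, against 8.43, 8.60, 8.81 and 8.83. On control 4 these genes lay 1.83, 1.78 and 1.14 above the mean of the other controls, and the remaining 7 arrays of both groups were mixed. Their differences of -0.58, -0.37 and -0.25 became -0.12, 0.07 and 0.03 without control 4.

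**Figure D3:**
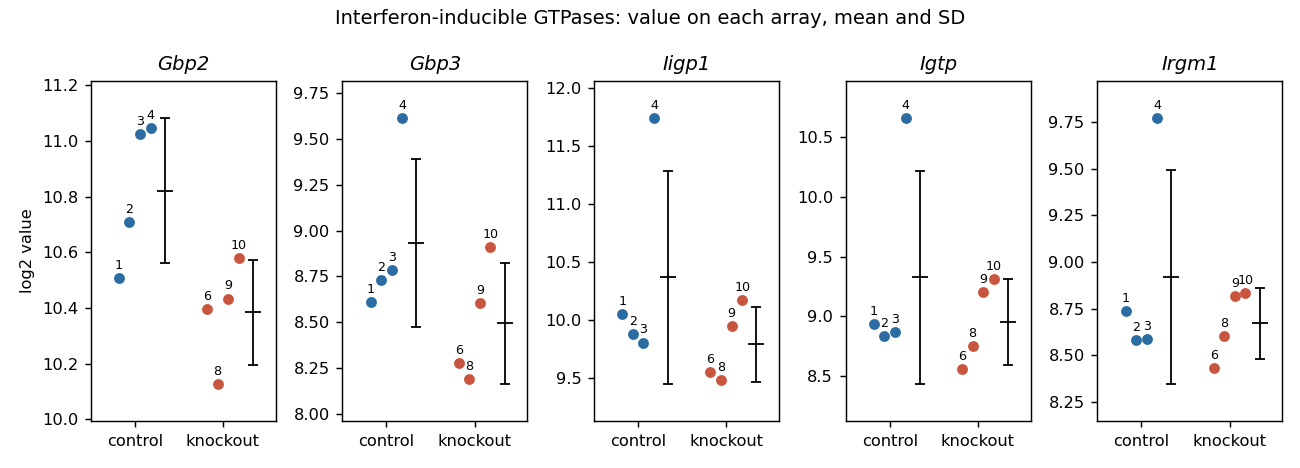
Log2 value of 5 interferon-inducible GTPases on each array (dots with the array's number, control blue, knockout red), each panel with its own vertical scale and with black bars for the group mean and SD, n = 4. Control 4 stands alone at the top for Iigp1, Igtp, Irgm1 and Gbp3, while for Gbp2 control 3 lies beside it.

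Antigen processing genes cut and carry peptides for presentation on class I molecules, and the 4 members are neighbours in the genome. They did not lie to one side: 2 of 4 were lower, 3 with array medians subtracted, with a median of -0.03. Psmb8, a catalytic subunit of the immunoproteasome, read 10.06, 9.85, 10.04 and 10.67 in control and 9.99, 10.12, 10.22 and 10.43 in knockout. Knockouts 8, 9 and 10 lay below control 4 and above the other controls. Its means were 10.16 ± 0.36 and 10.19 ± 0.19 (SD, n = 4 each), a difference of 0.04 (95% interval -0.37 to 0.44) and 0.21 without control 4. Psmb9, another such subunit, differed by 0.00306, and by 0.13 without control 4.

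Tap1 and Tap2 form the transporter that moves peptides into the endoplasmic reticulum. Tap1 read 7.51, 7.49, 7.31 and 8.13 in control and 7.04, 7.22, 7.37 and 7.63 in knockout. Control 4 stood above and knockouts 6 and 8 below the other arrays, with means of 7.61 ± 0.36 and 7.31 ± 0.25 (SD, n = 4 each). Its difference was -0.30 (95% interval -0.74 to 0.15), and -0.12 without control 4. Of its 4 probe sets 3 were lower. Tap2 was nearly level, at 9.18 to 9.33 in control and 9.11 to 9.27 in knockout, and differed by -0.06.

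Of 5 other induced genes all were lower, with a median of -0.12, and -0.04 without control 4. Trim30a, a ubiquitin ligase that restrains inflammatory signalling, read 8.07, 8.07, 8.57 and 8.58 in control and 7.79, 7.99, 8.11 and 8.18 in knockout. Within each set the controls lay above the knockouts. The means were 8.32 ± 0.29 and 8.02 ± 0.17 (SD, n = 4 each), a difference of -0.30 (standard error 0.15, 95% interval -0.65 to 0.05) and -0.21 without control 4. Rtp4, a chaperone of membrane receptors, read 9.39, 9.34, 9.44 and 10.11 in control and 8.82, 8.76, 9.22 and 9.64 in knockout, and differed by -0.46. Without control 4 its difference was -0.28. Ifi35 varied little, at 10.86 to 11.02 in control and 10.85 to 10.93 in knockout, and differed by -0.02 with signs that varied between its 3 probe sets. Its means were 10.92 ± 0.07 and 10.90 ± 0.03 (SD, n = 4 each). Xaf1, a promoter of cell death, differed by -0.12, and Epsti1 by -0.12, the latter with 7.09 on knockout 6 and 7.68 to 8.03 on the other knockouts.

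Over 8 arrays the type II group differed more from control than the type I group, and the order turned when control 4 was left out. Its 10 members had a median of -0.27 with 8 lower, and the 27 of the type I group a median of -0.17 with 26 lower. Within the first set, which lacks control 4, the medians were -0.19 and -0.14, and within the second -0.31 and -0.21. With each gene's probe sets averaged they were close, at -0.20 and -0.17. Without control 4 they were -0.01 with 6 of 10 lower and -0.08 with 22 of 27 lower. On control 4 the mean over the group's genes was 0.77 for type II and 0.46 for type I, while on the other 7 arrays both groups lay between -0.32 and 0.13. It was the highest array for 10 of 10 type II and 20 of 27 type I members. Leaving out any other single array gave a median of -0.36 to -0.19 for type II and -0.22 to -0.12 for type I.

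**Figure D4:**
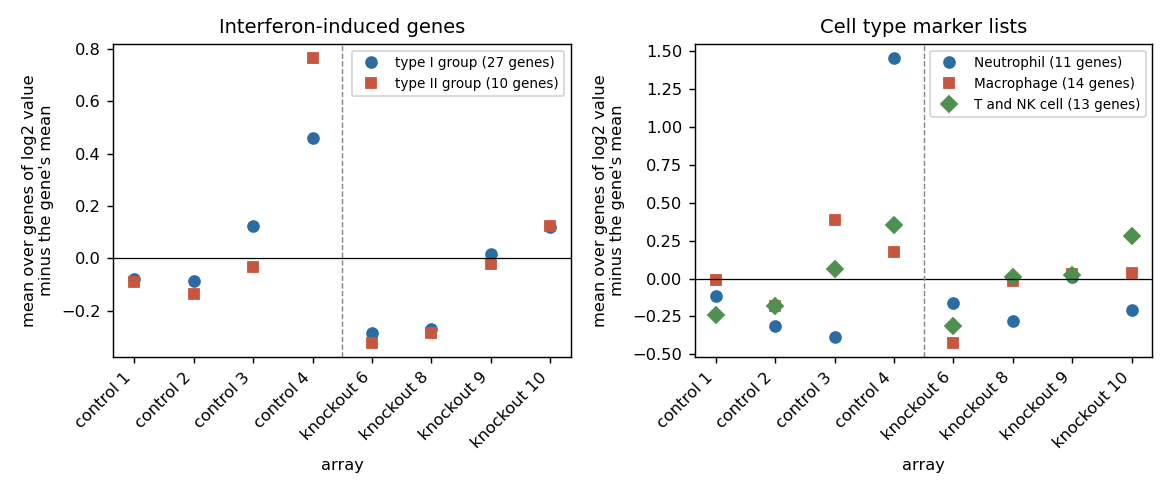
Mean over the genes of a list of the log2 value minus each gene's mean over 8 arrays, by array (controls left of the dashed line); left, the type I and type II groups, right, markers of neutrophils, macrophages, and T and NK cells, with another vertical scale. On control 4 the type II group lies at 0.77, the type I group at 0.46, the neutrophil markers at 1.45 and the T and NK cell markers at 0.35, each list's highest value.

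Other genes of the pathway were read from lists that held no member. Of 7 measured ligand genes 3 were lower (4 with array medians subtracted), with a median of 0.02. These genes read low, averaging 4.61 to 4.86 per array, and 0 of them remained with dim genes left out. Their signal may therefore be largely background. Ifng read 3.43 to 3.72 in control and 3.46 to 3.61 in knockout, and Ifnb1 differed by 0.20. Ifna5, one of many type I interferon genes, read 4.81 ± 0.08 and 4.57 ± 0.15 (SD, n = 4 each) and differed by -0.24. Of 9 receptor, kinase and Stat genes 6 were lower, with a median of -0.05, Ifnar1 by -0.11 and Ifnar2 by -0.12. Of 9 negative regulators 4 were lower (6 with array medians subtracted), with a median of 0.01. Ptpn11, a phosphatase (SHP2), averaged 11.52 ± 0.01 against 11.66 ± 0.05 in knockout (SD, n = 4 each), higher by 0.14, and Socs1, an inhibitor of the receptor kinases, differed by 0.18. Upstream sensing genes lay lower in 12 of 14 cases but by little (median -0.05), with Irf5 at -0.15 and Irf8, a factor of myeloid cells, at 0.30.

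Of 45 further interferon-induced genes 34 were lower (53.3% of all genes), with a median of -0.09. With array medians subtracted 38 were lower, where 63.3% of all genes were. Without control 4, 29 were lower (51.5% of all genes), with a median of -0.04. Trim21, an antibody receptor in the cytosol, read 8.59 ± 0.16 and 8.35 ± 0.09 (SD, n = 4 each) and differed by -0.23, and Ifi27l2a differed by -0.25. On 19 of the 45 the highest array was control 4. Irgm2 and Ifi47, GTPases of this list singled out after their values were seen, followed the pattern of Igtp. Irgm2 read 9.70 on control 4 and 7.85 to 8.55 on the other arrays, and Ifi47 read 9.60 and 7.60 to 8.49. The other GTPases of the list are not described here. No gene of these lists passed limma over all genes (adjusted p 0.999). At an unadjusted p under 0.05 were Ifna5 and Trim21 on the lower side and Ptpn11 on the higher.

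Markers of immune cells moved with some of these values, and their part in the results was not tested. Neutrophil markers (11 of 12 measured) averaged 8.04 on control 4 and 6.20 to 6.59 on the other 7 arrays. For 8 of the 11 it was the highest array. S100a9, a calcium-binding protein of neutrophils, read 10.92 there and 5.36 to 6.48 elsewhere, and Camp, a granule peptide, 8.53 against 5.33 to 5.90. The defining marker Cxcr2 stayed at 4.43 to 5.13 on all arrays. The list's highest genes were S100a8, at 7.79 to 11.28 in control and 8.34 to 10.51 in knockout, and Lcn2, which adipocytes also express, at 8.69 to 12.17 and 11.58 to 12.42. Red blood cell markers (4 of 7 measured) averaged 6.93 on control 4 and 5.57 to 6.37 elsewhere, with Alas2 at 10.87 and Slc4a1 at 7.80 on control 4. Control 4 was the highest array for 2 of these 4 genes.

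Macrophage markers (14 of 14 measured) averaged 9.62 to 10.19 in control and 9.37 to 9.84 in knockout, with 12 of 14 lower and a median difference of -0.17. Lyz2 ran from 12.31 to 13.26 and from 12.14 to 12.79, and Csf1r from 11.78 to 12.35 and from 11.59 to 12.19. Among the 14, 2 had control 4 as the highest array. The macrophage count and median rested on single arrays: without knockout 6 they were 7 of 14 and 0.00893, without control 3 they were 8 and -0.00394, and without control 4 they were 9 and -0.13. Adgre1, the F4/80 antigen picked after its values were seen, ran from 8.82 to 9.27 and from 8.26 to 8.97. T and NK cell markers (13 of 15 measured), from cells that make interferon gamma, averaged 6.02, 6.07, 6.32 and 6.61 on controls 1 to 4 and 5.94, 6.27, 6.28 and 6.54 on the knockouts. They were thus highest on control 4, next on knockout 10 and lowest on knockout 6. Control 4 was the highest of the 8 arrays for 6 of the 13 (16.2% of all genes) and the highest control for 11 (30.1% of all genes). Between groups 4 of the 13 were lower (7 with array medians subtracted), with a median of 0.03, and with Zap70 at 8.45 to 8.77 and 8.44 to 8.88 and Cd3e at 6.76 to 7.39 and 6.83 to 7.25. Markers of plasmacytoid dendritic cells, known for type I interferon, averaged 6.66 to 6.72 in control and 6.53 to 6.71 in knockout (7 of 8 measured), with Tcf4 at 10.12 to 10.48 and 10.27 to 10.44 and Klk1 at 7.27 to 7.57 and 7.25 to 7.45. Conventional dendritic cell markers (7 of 8) averaged 7.39 to 7.71 and 7.32 to 7.53, with Clec10a at 10.24 to 10.83 and 9.73 to 10.62 and Itgax at 8.10 to 8.76 and 7.51 to 8.99. B cell markers (7 of 8) averaged 5.08 to 5.33 and 4.96 to 5.52, with Pax5 at 5.85 to 6.11 and 5.79 to 6.06 and Cd79b at 5.20 to 5.74 and 5.27 to 6.36. In each of these lists the groups overlapped. Endothelial markers (8 of 8) averaged 9.42 to 9.99 and 9.58 to 9.86, with Gpihbp1 at 10.69 to 11.17 and 10.63 to 11.48 and Egfl7 at 9.95 to 10.44 and 10.18 to 10.35. Averages of adipocyte markers (10 of 12) ran from 12.98 to 13.32 and from 13.17 to 13.34, control 4 being the lowest. These are log2 values without detection calls, so none reads 0. With the RNA quality measure as a covariate the median over the interferon-induced members was -0.14, with 33 of 37 lower.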

How the data were processed

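Biotin-labelled, amplified RNA from a Trizol extraction was put on 1 array per sample, per the labels' protocols. The deposited values are log2 levels per probe set, made with RMA per the submitters' processing notes (version not given in the sources used here); they ran from 2.71 to 14.8. RMA normalises between arrays, and low values may be compressed. Of 45101 probe sets, 64 array controls were left out, 34945 had 1 gene symbol (platform annotation of 2016), 932 several and 9160 none; symbols matched by Entrez number for 34741, with 0 changed. The probe set with the highest mean stood for a gene.

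Groups were compared with limma 3.58.1 (R 4.3.3; lmFit, eBayes, no covariates) over 18193 genes, with Benjamini-Hochberg adjustment, a threshold of 0.05 and unadjusted 95% intervals; the steps were tested on simulated data. No pair of arrays held identical values. The number of arrays limits the precision. Members and lists were chosen with earlier results of these data known, so lists are described by counts and medians without a test. Every measured member is given with its difference; given in full are, in each role, the member with the highest mean and that with the smallest p, from pathway lists the 2 genes with the smallest p, and from marker lists the 2 with the highest mean. Alternatives tried were robust estimation with a variance trend, leaving out dim genes, 2 renormalisations, other uses of the probe sets, array weights, the array set, RNA quality, and each array left out in turn. Control 4 left out with the set as a block, and controls 1 and 4 and knockout 9 left out, were added after seeing the data.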

Additional observations from a re-analysis of the deposited data

Results flagged for a closer look

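Within the controls, control 4 lay far above the other 3 for 4 members, by the ratio of its gap to the nearest control to the whole range of the group, against a critical value of 0.829 for 4 samples. The ratio was 0.946 for Igtp, 0.872 for Iigp1, 0.868 for Irgm1 and 0.863 for Rtp4, and 0.886 for the mean level of the type II group. Parp9 was the exception in direction, with control 1 far below the others at a ratio of 0.959. In all, 6 of 80 groups of 4 stood out, 5 of them with control 4 highest; chance alone gives about 1 in 20, and genes of 1 array are not independent.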

How the results depend on the processing

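Over 21 alternatives, 0 members passed the limma threshold in any, and all genes gave 0 calls in each but the one without controls 1 and 4 and knockout 9, which gave 155. Members lower in knockout numbered 28 to 37 with 1 array left out (28 without control 4), 56 of 64 with every probe set alone, and 26 of the 28 left with dim genes removed. The member median ran from -0.24 to -0.08 over the fits without 1 array, type I from -0.22 to -0.08 and type II from -0.36 to -0.01. The type I minus type II median was 0.10 over 8 arrays and ran from -0.068 to 0.20; it was -0.082 without control 4 with the array set as a block, and -0.076 without controls 1 and 4 and knockout 9. Of 12 members given in full, 9 kept their sign throughout. Rsad2 turned to 0.083 with array weights, 0.35 within the first set, 0.024 with the RNA quality covariate, 0.27 and 0.19 in the fits just named, and ran from -0.38 to 0.36 with 1 array left out. Ifi35 turned to 0.0092 with probe sets averaged and 0.055 within the second set, and ran from -0.037 to 0.016. Psmb8 turned to -0.027 within the second set and ran from -0.066 to 0.21. For these turns the cause was not tested. No paired analysis was possible because the control and knockout arrays share no replicate number. With 4 arrays per group the median half-width of a member's 95% interval was 0.37, wider than most of the differences.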
